A study of Mus musculus with 12 samples.

Results

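The tumor-draining lymph nodes (tdLNs) of mice given BF10 and of mice given control IgG were compared by their T cell receptor (TCR) repertoires, with 1 library on each side. The pair was taken by its labels, as the BF10 and the control IgG libraries of the node, and makes up 2 of the 12 libraries of the series, which covers 4 treatments in 3 tissues. The mice were wild type by the labels and C57BL/6 by the study's methods, and they carried HNSC/Q1-2 tumors, a mouse head and neck cancer line grown orthotopically. BF10 is human IL-10 fused to the C terminus of an antibody that blocks the receptor for colony-stimulating factor 1 (CSF-1R). Control IgG was given in its place. The labels state 3 doses at intervals of 3 days and the same 30 mg/kg for every treatment, whereas the methods of the study give a higher dose for BF10 than for control IgG. RNA of 3 mice of a treatment was mixed before sequencing, and each library was made from 100 ng. The labels give no age or sex. The other node libraries of the series, from mice given IL-10-Fc or an anti-CSF1R antibody, are used only as points of reference. By the labels, cells were isolated with beads against CD8, and the cell type label of the node libraries reads CD8 T cells although their titles leave it out. A TCR library holds no CD8 transcript, so this label cannot be checked against CD8 itself.

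A T cell builds its receptor by joining a variable (V) and a joining (J) segment, and in beta and delta chains a short diversity (D) segment between them. Bases that no segment encodes can be added at the joints. The junction, called the complementarity-determining region 3 (CDR3), touches the antigen and marks a clone. Most T cells carry an alpha and a beta chain, and the V and J use of these chains in naive cells follows largely from the order of the segments on the chromosome and from selection in the thymus. Other T cells carry a gamma and a delta chain. Some gamma delta cells arise in the fetal thymus with a junction that is the same in every animal, and cells with the Vgamma6 chain, known for making IL-17, settle in the dermis, in mucosae such as that of the mouth and in the lymph nodes that drain them. Invariant natural killer T (iNKT) cells and mucosal-associated invariant T (MAIT) cells likewise carry a nearly fixed alpha chain, and they see lipids on CD1d and vitamin B metabolites on MR1. In the text below, TRAC, TRBC, TRGC and TRDC name the libraries' alpha, beta, gamma and delta chains after the constant regions that primed them.

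Each library holds counts of unique molecular identifiers (UMIs), which tag single cDNA molecules. UMIs with at least 3 reads were counted, and a clonotype was taken as a chain's V and J assignment together with its CDR3 in amino acids. The BF10 library held 277580 such UMIs, of which 204079 were TRBC, 55901 TRAC, 11738 TRGC and 5862 TRDC. The control IgG library held 238672 UMIs, of which 124488 were TRBC, 101598 TRAC, 7731 TRGC and 4855 TRDC. Read coverage per UMI was not the same. At least 7 reads supported 8.00% of the UMIs in BF10, 38.7% in control IgG, 33.5% in IL-10-Fc and 9.94% in anti-CSF1R, so the 4 node libraries fell into 2 of low and 2 of high coverage. Coverage and treatment cannot be told apart in the comparison of BF10 with control IgG. Each share is therefore also given among UMIs with at least 7 reads where this matters, and beside the anti-CSF1R library, which had a coverage close to that of BF10. Both libraries of low coverage also came from mice given an antibody that blocks CSF-1R, alone or as BF10. A likeness of BF10 to anti-CSF1R therefore cannot be assigned to coverage or to this antibody. With 1 pooled library a side no test between treatments was possible. Intervals are 95% intervals of counting error only, exact for shares and on the log scale for ratios. They leave out differences between mice, and UMIs of 1 cell or 1 clone are not independent.

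The chains split differently in the 2 libraries. TRAC took 20.1% of UMIs in BF10 (19.99% to 20.29%) and 42.6% in control IgG (42.4% to 42.8%). TRBC took 73.5% (73.4% to 73.7%) and 52.2% (52.0% to 52.4%). There were thus 0.274 TRAC UMIs for each TRBC UMI in BF10 and 0.816 in control IgG. This number split the node libraries in the same way as coverage and CSF-1R blockade did, at 0.312 in anti-CSF1R and 0.741 in IL-10-Fc. With at least 7 reads it was 0.215 in BF10 and 0.718 in control IgG. All results that follow are therefore shares within a chain. TRGC and TRDC together took 6.34% of UMIs in BF10 (6.25% to 6.43%), 5.27% in control IgG (5.18% to 5.36%), 5.49% in IL-10-Fc and 4.96% in anti-CSF1R. Gamma delta chains were thus in every node library. Most gamma delta cells of lymph nodes lack CD8, and whether the node cells were selected for CD8 as labelled could not be checked. In bulk RNA, more cells with a chain and more of its RNA per cell cannot be told apart.

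The gamma chains gave the widest gap between BF10 and control IgG of all 4 chains. Over all V segments, the positive differences in share added up to 15.4 percentage points for TRGC, 10.2 for TRDC, 9.17 for TRAC and 4.93 for TRBC. The TRGC sum was 4.49 between BF10 and anti-CSF1R, 5.05 between control IgG and IL-10-Fc and 16.6 between control IgG and anti-CSF1R. For TRDC these sums were 10.4, 4.80 and 19.4, so in delta chains BF10 was as far from anti-CSF1R as from control IgG. Trgv6, the segment of the fetal Vgamma6 chain, had a higher share in BF10, Trgv2, a segment of chains made by the adult thymus, had a lower one, and a single CDR3 made up nearly all of the Trgv6 UMIs. The delta chain that pairs with Vgamma6 in fetal cells also had a higher share in BF10. The most abundant gamma and delta CDR3s of the node are shown because these shares turn on them. They run 5′ to 3′, and capitals mark bases that match neither the germline V segment nor the germline J segment and so stem from a D segment or from addition at the joint.
Trgv6-Trgj1, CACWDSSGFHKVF: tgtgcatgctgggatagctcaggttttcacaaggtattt
Trgv4-Trgj1, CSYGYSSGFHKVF: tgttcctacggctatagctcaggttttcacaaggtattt
Trgv2-Trgj2, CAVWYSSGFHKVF: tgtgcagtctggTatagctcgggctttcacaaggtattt
Trdv4-Trdj2, 17 residues: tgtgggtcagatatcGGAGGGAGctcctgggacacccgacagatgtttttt
Trdv4-Trdj1, 16 residues: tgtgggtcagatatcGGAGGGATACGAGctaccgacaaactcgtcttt
The leading gamma CDR3 was germline throughout: its V match of 16 bases and its J match of 23 bases left 0 bases between them, and they could overlap by 3 bases. In the leading delta CDR3, 7 of the 8 bases between the V match of 15 bases and the J match of 28 bases matched Trdd2. All 13 bases between V and J in the Trdv4-Trdj1 CDR3 also matched Trdd2.

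Trgv6 (Tcrg-V6, chr13:19190356-19190929 of GRCm38) took 47.1% of TRGC UMIs in BF10 (46.2% to 48.0%), 34.1% in control IgG (33% to 35.1%), 37.4% in IL-10-Fc and 49.7% in anti-CSF1R. The ratio of BF10 to control IgG was 1.38 (1.33 to 1.43), and 1.36 with at least 7 reads. The germline CDR3 with Trgv6 and Trgj1 alone had 5356 UMIs in BF10, 45.6% of the chain (44.7% to 46.5%), and 2558 in control IgG, 33.1% (32.0% to 34.1%). The 2 libraries of low coverage had the higher shares, with 48.0% in anti-CSF1R against 36.0% in IL-10-Fc, and with at least 7 reads the shares were 46.3% in BF10 and 34.0% in control IgG. Other CDR3s on Trgv6 and Trgj1 took 1.43% in BF10 and 0.957% in control IgG, spread over 83 and 42 clonotypes. Nucleotide sequences of Trgv6 and Trgj1 that were 1 base from the leading one took 0.699% and 0.362% of the chain.

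Trgv2 (chr13:19336573-19337167, minus strand) took 17.9% of TRGC UMIs in BF10 (17.2% to 18.6%) and 29.7% in control IgG (28.6% to 30.7%), a ratio of 0.603 (0.572 to 0.635). It was 18.4% in anti-CSF1R and 27.1% in IL-10-Fc. Its UMIs belonged to many clones, 449 clonotypes in BF10 and 383 in control IgG, and the largest of those named above, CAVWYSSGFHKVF, had 140 UMIs in BF10 (1.19%) and 130 in control IgG (1.68%). Since shares of a chain add up to the whole, a larger leading clonotype lowers the rest. With the leading CDR3 set aside, Trgv2 still took 32.9% of what remained in BF10 and 44.3% in control IgG, a ratio of 0.742 (0.708 to 0.777), and 0.786 with at least 7 reads. Over the same remainder Trgv1 took 18.2% in BF10 and 13.8% in control IgG, and Trgv3 13.4% and 10.1%. Trgv5 took 3.87% and 1.43% of it, a ratio of 2.71, and the other Trgv6 chains 2.70% and 1.45%, a ratio of 1.86. The reads that fit Trgv1 or Trgv3 alike took 8.46% and 9.18% of it. Trgv4, whose chain is also made in the perinatal thymus, took 18.7% and 18.1% of it, but 13.8% and 18.6% with at least 7 reads.

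Trgv5, the segment of the gamma chain of epidermal T cells, was the least abundant gamma V segment that reached 1% of the chain in either library, the minimum for a segment to be compared. It took 2.10% in BF10 (1.85% to 2.38%) and 0.957% in control IgG (0.752% to 1.20%), a ratio of 2.20 (1.70 to 2.85). It was 1.34% in IL-10-Fc and 1.64% in anti-CSF1R. Together with Trgj1 it had 219 UMIs in BF10 and 74 in control IgG. The germline CDR3 that epidermal T cells share with the Vgamma6 chain made up only 60 of these UMIs in BF10 and 34 in control IgG, 0.511% (0.390% to 0.657%) and 0.440% (0.305% to 0.614%) of the chain, and these intervals overlap.

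To count segments, a ratio of at most 0.8, or its inverse and above, was called past the fold, with no test behind it. Of the 7 gamma V segments compared, 4 (57.1%) were past this fold: Trgv6 and Trgv5 were higher in BF10, and Trgv2 and the reads that fit Trgv1 or Trgv3 alike were lower. The last of these took 4.60% and 6.14%, a ratio of 0.749 that was 0.861 with at least 7 reads. Trgv1 alone took 9.87% and 9.25%, Trgv3 alone 7.27% and 6.76%, and Trgv4 10.2% and 12.1%. Of the 4 gamma J segments, 2 (50%) were past the fold. Trgj2, which Trgv2 uses, took 18.3% in BF10 and 30.1% in control IgG, a ratio of 0.609. Trgj1, which Trgv4 to Trgv7 use, took 59.4% and 47.5%, only just past the fold, and its ratio was 1.16 with at least 7 reads. Trgj4, the partner of Trgv1, took 21.0% and 21.1%. As a group, Trgv1, Trgv2, Trgv4 and Trgv7 took 38.2% of TRGC UMIs in BF10 (37.3% to 39.1%) and 51.4% in control IgG (50.3% to 52.5%).

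**Figure D1:**
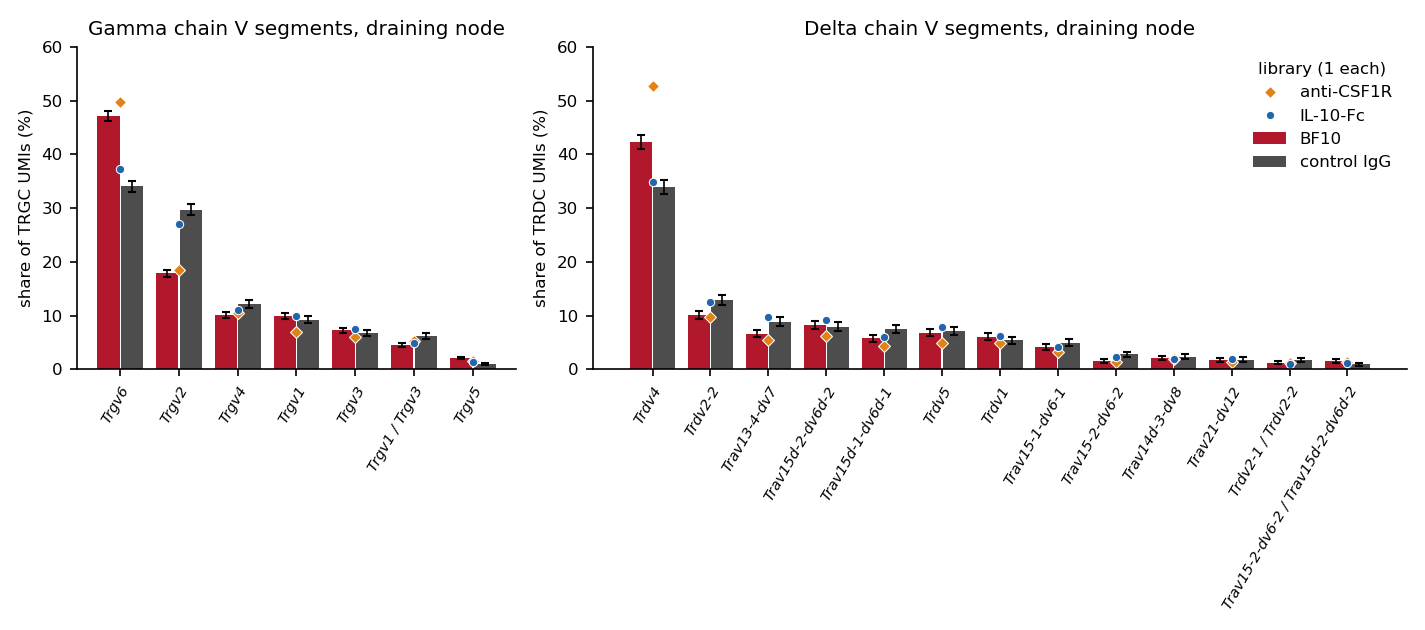
Share of TRGC (left) and TRDC (right) UMIs of each V segment that reached 1% in BF10 or control IgG, in percent. Bars are the BF10 and control IgG node libraries with exact 95% counting intervals, and points are the IL-10-Fc and anti-CSF1R node libraries, 1 library each. Trgv6 stands at 47.1% in BF10 and 34.1% in control IgG, Trgv2 at 17.9% and 29.7%, and Trdv4 at 42.3% and 34.0%.

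Among delta chains, Trdv4 (Vdelta1 in the older naming, chr14:54074905-54075515) led in both libraries, at 42.3% of TRDC UMIs in BF10 (41.1% to 43.6%) and 34.0% in control IgG (32.6% to 35.3%). The share was 34.9% in IL-10-Fc and 52.8% in anti-CSF1R. The leading CDR3 with Trdj2 accounted for the gap. It had 2160 UMIs in BF10, 36.8% of the chain (35.6% to 38.1%), and 1361 in control IgG, 28.0% (26.8% to 29.3%), a ratio of 1.31 (1.24 to 1.39) that was 1.34 with at least 7 reads. All other Trdv4 chains together took 5.49% and 5.93%. The second Trdv4 clonotype printed above, with Trdj1, had 159 UMIs in BF10 (2.71%) and 136 in control IgG (2.80%), so its share differed by less than counting error.

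Of the 13 delta V segments compared, 6 (46.2%) were past the fold, and of the 2 J segments 1 (50%) was. Trdj2 took 38.2% and 29.3%. Trav13-4-dv7, a V segment that both alpha and delta chains can use, took 6.58% in BF10 and 8.84% in control IgG, a ratio of 0.745 (0.653 to 0.850). Trav15d-1-dv6d-1, of the Vdelta6 family, took 5.77% and 7.54%, a ratio of 0.765. Trdv2-2 took 10.1% and 12.9%, a ratio of 0.781 that was 0.814 with at least 7 reads. Its assignments shared with Trdv2-1 took 1.2% and 1.71%. Trav15-2-dv6-2 fell on both sides: its own assignments took 1.55% in BF10 and 2.82% in control IgG, whereas those shared with its near copy Trav15d-2-dv6d-2 took 1.57% and 0.947%. Near copies of a segment can be told apart only by a few bases, so these values depend on how much of the V segment was read. Trdv4 itself (ratio interval 1.19 to 1.31) stayed just short of the fold. With the leading delta CDR3 set aside, 4 of the 6 segments came back within the fold: Trav13-4-dv7 at a ratio of 0.849 (0.746 to 0.967), Trav15d-1-dv6d-1 at 0.872 (0.757 to 1.003), Trdv2-2 at 0.890 (0.803 to 0.986) and the assignments shared by Trdv2-1 and Trdv2-2 at 0.830 (0.608 to 1.13). The assignments to Trav15-2-dv6-2, alone (0.627) or shared with its near copy (1.89), were still past it. Other segments were past the fold in this remainder. Trdv1 took 9.62% of it in BF10 and 7.53% in control IgG, a ratio of 1.28 (1.10 to 1.49). Trav16d-dv11 took 1.16% and 0.658%, a ratio of 1.76 (1.07 to 2.92). Counted once per clonotype, Trav15d-1-dv6d-1 had a ratio of 0.947.

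Clonotypes of at least 10 UMIs held a larger share of both gamma delta chains than of the alpha beta chains. The 106 TRGC clonotypes of at least 10 UMIs held 74.7% of the chain in BF10, and 84 held 68.1% in control IgG. For TRDC, 6 held 40.7% and 10 held 33.1%, and the leading CDR3 alone was 36.8% and 28.0% of the chain. Of the large TRGC clonotypes, 86 in BF10 (81.1%) and 73 in control IgG (86.9%) were listed in all 3 other node libraries. A large clonotype of these chains thus need not be 1 expanded clone. The leading gamma and delta CDR3s shaped the CDR3 lengths as well. CDR3s of 13 residues made up 58.1% of TRGC UMIs in BF10 and 46.7% in control IgG, and CDR3s of 17 residues made up 45.6% and 37.1% of TRDC UMIs. A smaller delta clonotype on Trav15-1-dv6-1 and Trdj1, listed with 25 UMIs in BF10 and 6 in control IgG, was also listed with 69 UMIs in the BF10 spleen and with 0 in the control IgG spleen. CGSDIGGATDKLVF, on Trdv4 and Trdj1, had 4 UMIs in BF10 and 22 in control IgG.

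The same CDR3s were measured in the tumors and spleens of the series. The leading gamma CDR3 took 1.28% of TRGC UMIs in the BF10 tumor and 2.72% in the control IgG tumor, 4.00% in the BF10 spleen and 2.47% in the control IgG spleen. Its high share was thus seen in the node libraries and not in those of the other tissues. The delta CDR3 took 5.88% of TRDC UMIs in the BF10 tumor (87 UMIs), 31.8% in the control IgG tumor (525 UMIs) and 2.73% and 1.46% in the 2 spleens. The IL-10-Fc tumor had 3.21% (28 UMIs) and the anti-CSF1R tumor 63.8% (701 UMIs). The order of BF10 and control IgG in the tumor was thus opposite to that in the node, but tumors differed widely from each other. Their TRDC chains were small, with 1479 UMIs in the BF10 tumor and 1651 in the control IgG tumor.

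The alpha chain differed in its V segments and hardly in its J segments. Of the 33 V segments (or sets of segments that the reads fit alike) with at least 1% of TRAC UMIs in either library, 11 (33.3%) were past the fold, 6 higher and 5 lower in BF10. Of those lower in BF10, Trav8-1 had the lowest ratio and Trav7d-2 the largest difference in share. All 11 lay on the same side of control IgG in anti-CSF1R, and 7 did in IL-10-Fc. Of the 11, 9 stayed past the fold among UMIs with at least 7 reads.

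Trav7d-2 (chr14:52683964-52684472) was the most used alpha V segment in both libraries, at 5.09% in BF10 (4.91% to 5.27%), 6.95% in control IgG (6.79% to 7.11%), 6.88% in IL-10-Fc and 6.46% in anti-CSF1R. The ratio of BF10 to control IgG was 0.732 (0.702 to 0.764), and 0.579 with at least 7 reads. Trav8-1 (chr14:53469756-53470232) took 1.26% in BF10, 2.24% in control IgG, 1.99% in IL-10-Fc and 1.68% in anti-CSF1R. Its ratio was 0.564 (0.519 to 0.613), the lowest of the 33, and 0.340 with at least 7 reads, where it had 30 UMIs in BF10. UMIs of these segments were also covered by fewer reads than the rest of the chain in BF10: 4.26% of the Trav8-1 UMIs and 5.17% of the Trav7d-2 UMIs reached 7 reads, against 6.49% of all TRAC UMIs. In control IgG, 39.1%, 36.2% and 36.0% did. The part of coverage in these differences was not tested. Trav7d-3 took 1.77% and 2.36% (ratio 0.752), Trav7d-4 0.857% and 1.09% (ratio 0.788) and Trav3-3 0.816% and 1.07% (ratio 0.765), each with a lower ratio still at 7 reads. Large clonotypes carried part of this. Without clonotypes of at least 10 UMIs the ratio of Trav8-1 was 0.587 and that of Trav3-3 0.770, whereas Trav7d-2 (0.896), Trav7d-3 (0.817) and Trav7d-4 (0.924) came within the fold. With each clonotype counted once, only Trav8-1 of these 5 stayed past it, at 0.643, and the others lay between 0.856 and 0.902.

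Of the segments higher in BF10, Trav6n-7 (chr14:53318798-53319284) took 3.33% in BF10 and 2.66% in control IgG, a ratio of 1.26 (1.18 to 1.33), and 1.45 with at least 7 reads. The reads that fit Trav14d-3-dv8 and Trav14n-3 alike took 3.33% and 2.53%, a ratio of 1.32 (1.24 to 1.40). Those of Trav16d-dv11 or Trav16n took 1.56% and 1.19% (ratio 1.31), and those of Trav5d-4 or Trav5n-4 took 1.04% and 0.804% (ratio 1.29). The last of these, at 1.19, and the Trav16 set, at 1.22, came within the fold without clonotypes of at least 10 UMIs. With each clonotype counted once, all 4 did, at 1.24 for Trav6n-7, 1.15 for the Trav14 set, 1.13 for the Trav16 set and 1.07 for the Trav5 set. The remaining 2 did not stay past the fold at 7 reads: the set of Trav14-1, Trav14-2, Trav14n-1 and Trav14n-2 went from 1.42 to 1.06 and Trav6n-6 from 1.28 to 1.03. The mouse alpha locus holds near copies of many V segments, marked d and n in their names. Assignments to more than 1 segment took 30.3% of TRAC UMIs in BF10 and 26.8% in control IgG, so that some of these differences lie between a segment and its copies.

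Summed over whole families, which does not depend on telling copies apart, the alpha V segments differed less. Among families with at least 1% of UMIs in either library, only Trav8 was past the fold, at 4.21% in BF10 and 5.38% in control IgG (ratio 0.782), and it was 4.59% in anti-CSF1R. The Trav7 family took 14.8% and 16.8%, the Trav6 family 13% and 11.3% and the Trav9 family 6.38% and 7.76%. The sum of the positive differences in V share was 9.17 percentage points between BF10 and control IgG. It was 5.37 between BF10 and anti-CSF1R and 4.65 between control IgG and IL-10-Fc. The pairs more alike in V use shared their coverage and also whether CSF-1R was blocked, and these cannot be told apart. Trav14-2 or Trav14n-2 (4.32% and 4.74%) and Trav10 (4.19% and 3.41%), the next most used segments in control IgG, were within the fold.

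**Figure D2:**
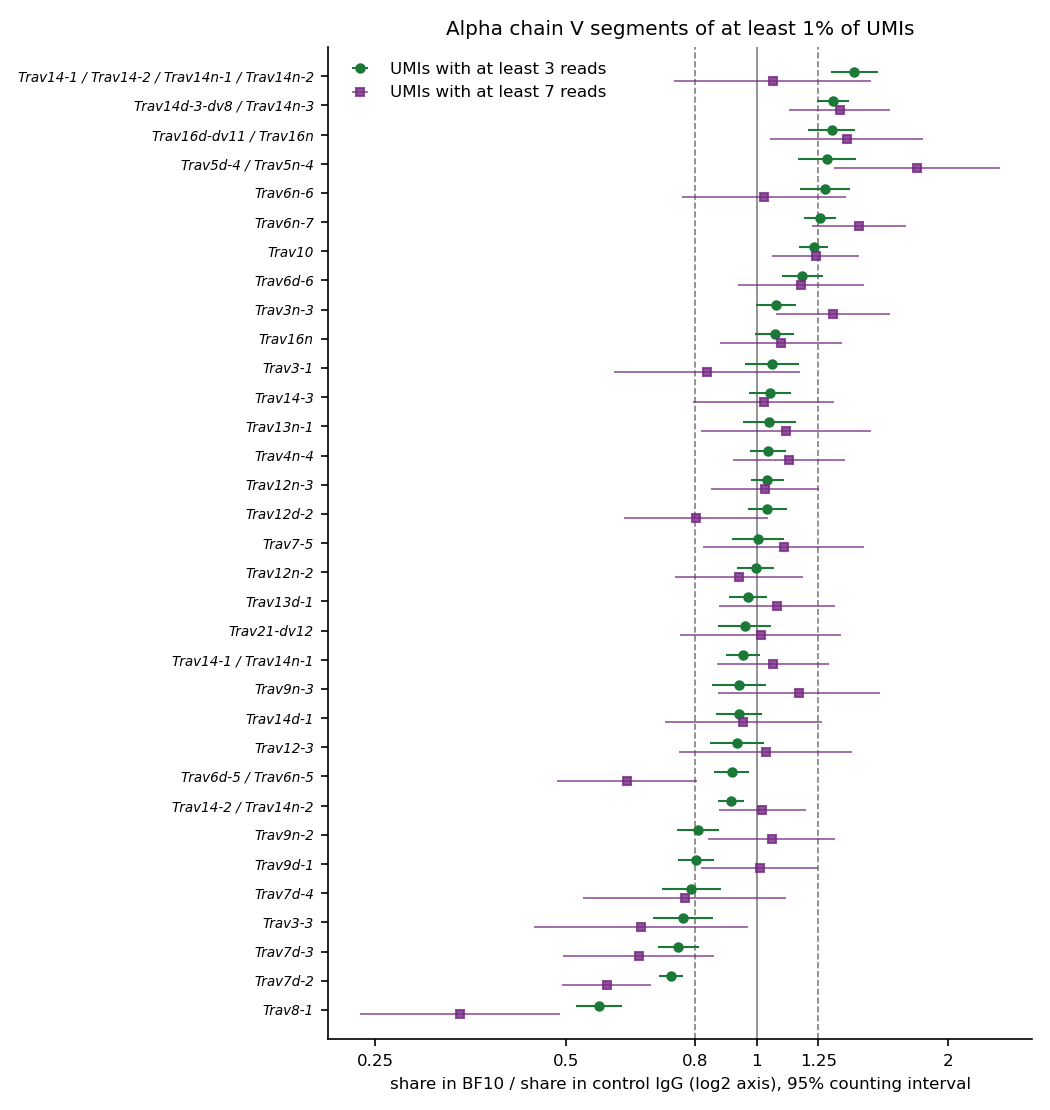
Ratio of the share in BF10 to the share in control IgG (log2 axis) for the 33 TRAC V segments with at least 1% of UMIs in either node library, ordered by ratio. Circles count UMIs with at least 3 reads and squares those with at least 7, bars are 95% counting intervals, and dashed lines mark the fold, 0.8 and its inverse. Trav8-1 lies lowest, at 0.564, and the set of Trav14-1, Trav14-2 and their copies highest, at 1.42.

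Alpha J segments were used alike. None of the 34 compared was past the fold (0%), with ratios from 0.886 for Traj33 to 1.18 for Traj39. Traj31 took 6.54% in BF10 and 6.38% in control IgG, Traj22 took 6.24% and 6.23%, and Traj23 took 5.58% and 5.66%. The J segments nearest the V segments on the chromosome, Traj61 to Traj44, which are used first as the locus rearranges, took 14.6% and 14.4%. Those in the middle, Traj43 to Traj24, took 46.1% and 45.6%, and the far ones, Traj23 to Traj2, 39.3% and 40.0%. The share difference over all J segments was 2.45 percentage points, against 2.46 between control IgG and IL-10-Fc.

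The beta chain had the smallest V share difference of the 4 chains, 4.93 percentage points between BF10 and control IgG. It was 2.92 between BF10 and anti-CSF1R and 2.07 between control IgG and IL-10-Fc. With at least 7 reads the difference between BF10 and control IgG was 7.16. None of the 19 V segments compared (0%) and none of the 12 J segments (0%) was past the fold. The ratios ran from 0.839 for Trbv2 to 1.24 for Trbv26 among V segments and from 0.911 to 1.14 among J segments, yet with so many UMIs the counting intervals of 17 V ratios and 10 J ratios left out 1. Trbv16 (chr6:41151740-41152230), the most used in both, took 9.52% in BF10 (9.39% to 9.65%) and 10.9% in control IgG (10.7% to 11.1%), Trbv3 8.82% and 9.39%, and Trbv19 8.78% and 9.10%. Of the V segments higher in BF10, Trbv26 took 4.73% and 3.81% and Trbv17 4.43% and 3.71%. With at least 7 reads 3 V segments were past the fold: Trbv26 (1.39) and Trbv17 (1.40) were higher in BF10, and Trbv16 was lower, at 7.60% against 10.1% (0.755). Trbv29 took 8.02% and 6.76%. As for the alpha chain, 15 of the 19 V segments had a share in BF10 that was nearer to anti-CSF1R than to control IgG.

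The beta J segments differed as a cluster. The locus holds 2 sets of J segments, each behind its own D segment, and the first set can be skipped. The Trbj1 set took 34.5% of TRBC UMIs in BF10 (34.2% to 34.7%), 31.2% in control IgG (31.0% to 31.5%), 30.9% in IL-10-Fc and 33.9% in anti-CSF1R. Of its 6 members, Trbj1-5 alone was not higher in BF10, at 2.65% and 2.76%. Trbj1-3 took 5.86% and 5.15%, Trbj1-4 7.54% and 6.66% and Trbj1-1 9.57% and 8.52%. In the second set, Trbj2-7, the most used J segment, took 19.9% and 21.6%, and Trbj2-5 took 9.91% and 10.4%. The share difference over the beta J segments was 3.67 percentage points between BF10 and control IgG, 1.09 between BF10 and anti-CSF1R and 0.978 between control IgG and IL-10-Fc.

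**Figure D3:**
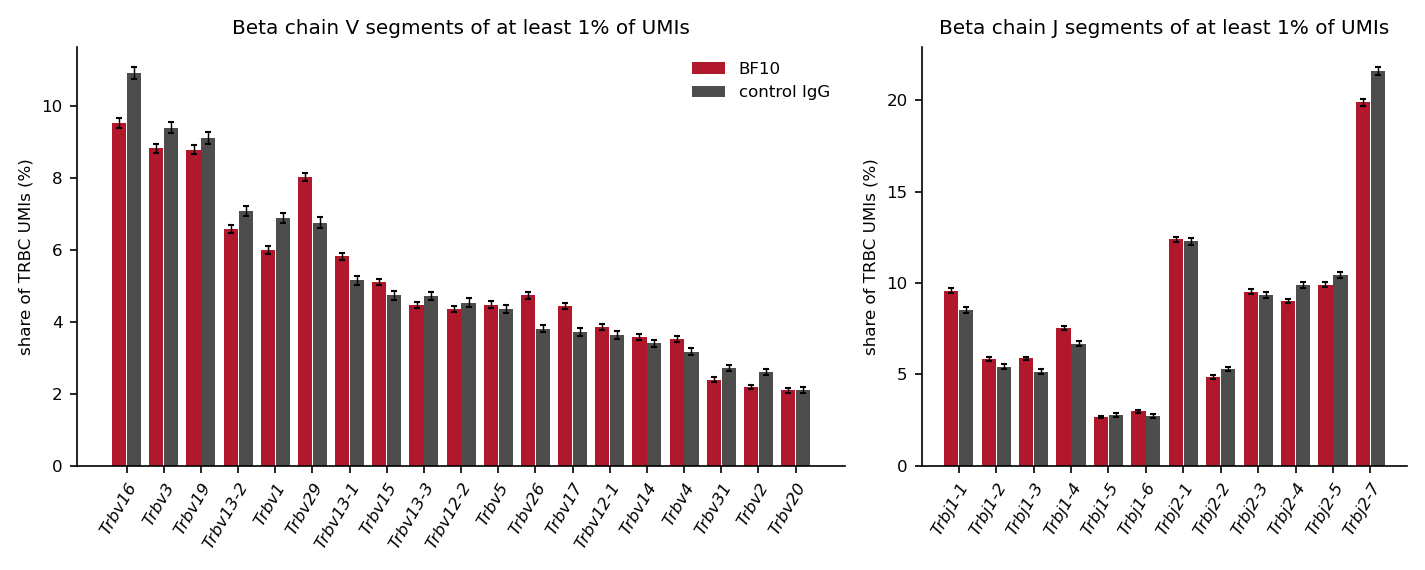
Share of TRBC UMIs, in percent, of each V segment (left, ordered by the control IgG share) and J segment (right) with at least 1% of UMIs in either node library. Bars are BF10 and control IgG, 1 library each, with exact 95% counting intervals. Trbv16 stands at 9.52% and 10.9%, and the 6 Trbj1 segments add up to 34.5% and 31.2%.

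CDR3 length was the same in both alpha beta chains to within a small part of a residue. The mean over TRBC UMIs was 13.84 residues in BF10 and 13.83 in control IgG, with an SD over UMIs of 1.77 and 1.65. CDR3s of 14 residues, the most common, took 31.4% of TRBC UMIs in both libraries. For TRAC the mean was 13.54 and 13.51 residues, with 30.8% and 30.4% at 14 residues and 28.5% and 29.2% at 13. The share difference over all lengths was 0.434 percentage points for TRBC and 1.3 for TRAC, against 0.917 and 0.726 between control IgG and IL-10-Fc.

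The invariant alpha chains had lower shares in BF10. The most abundant of them, the iNKT-type chain, joins Trav11 or Trav11d to Traj18, and MAIT-type chains use Trav1 and Traj33. The iNKT-type CDR3 is shown in its most abundant nucleotide sequence, which is germline throughout, because this CDR3 led the TRAC chain of both libraries.
Trav11 or Trav11d with Traj18, 15 residues: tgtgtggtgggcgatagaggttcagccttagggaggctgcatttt
Over all its nucleotide sequences, 6 in BF10 and 9 in control IgG, the CDR3 had 130 UMIs in BF10, 0.233% of TRAC (0.194% to 0.276%), and 390 in control IgG, 0.384% (0.347% to 0.424%), a ratio of 0.606 (0.497 to 0.739). The sequence shown made up 51 of these UMIs in BF10 and 151 in control IgG. IL-10-Fc had 0.264% and anti-CSF1R 0.275%, so that control IgG stood above the other 3 node libraries. With at least 7 reads the ratio was 0.922, from 13 and 142 UMIs. All Trav11 or Trav11d chains with Traj18 together had 151 UMIs in BF10 (0.270%) and 504 in control IgG (0.496%), a ratio of 0.545 (0.454 to 0.653). MAIT-type chains had 9 UMIs in BF10 (0.0161%) and 83 in control IgG (0.0817%), a ratio of 0.197 (0.0991 to 0.392). Their share was 0.0430% in IL-10-Fc and 0.0198% in anti-CSF1R. The CDR3 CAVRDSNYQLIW made up 6 of these UMIs in BF10 and 49 in control IgG.

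Large clonotypes of the alpha beta chains were counted as those of at least 10 UMIs. In TRBC there were 757 in BF10, which held 7.78% of the chain (7.67% to 7.90%), and 452 in control IgG, which held 6.77% (6.63% to 6.91%). The BF10 library held more TRBC UMIs. At the 124488 UMIs of control IgG, the number expected in BF10 was 335.7, with 5.45% of the chain, and the order turned. A minimum of 0.02% of the chain also gave fewer in BF10, 50 against 70. UMIs with at least 7 reads gave 12 against 97, but from 16853 TRBC UMIs in BF10 and 50856 in control IgG. At such unequal totals a fixed minimum of 10 UMIs cannot compare the libraries. In TRAC there were 194 in BF10 with 6.09% of the chain and 759 in control IgG with 14.6%. At 55901 UMIs each, 268.1 were expected in control IgG, with 8.88% of the chain, against the 194 of BF10.

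Few of the large TRBC clonotypes were the same in both libraries. Of the 757 in BF10 and 452 in control IgG, 45 were large in both, which is 5.94% of those of BF10 and 9.96% of those of control IgG. Of the BF10 ones, 524 were not listed in control IgG at all, and 280 of the control IgG ones were not listed in BF10. This share was not counted over all TRBC clonotypes, so whether large ones overlapped less than others was not tested. Large clonotypes listed in no other node library made up 48.5% in BF10, 47.1% in control IgG, 45.9% in IL-10-Fc and 47.8% in anti-CSF1R. Having large clonotypes of its own is thus not particular to either library of the pair. In TRAC, 87 were large in both, 44.8% of those of BF10 and 11.5% of those of control IgG. The scatter of their UMIs shows TRBC clonotypes mostly along the 2 axes and TRAC clonotypes also in between.

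**Figure D4:**
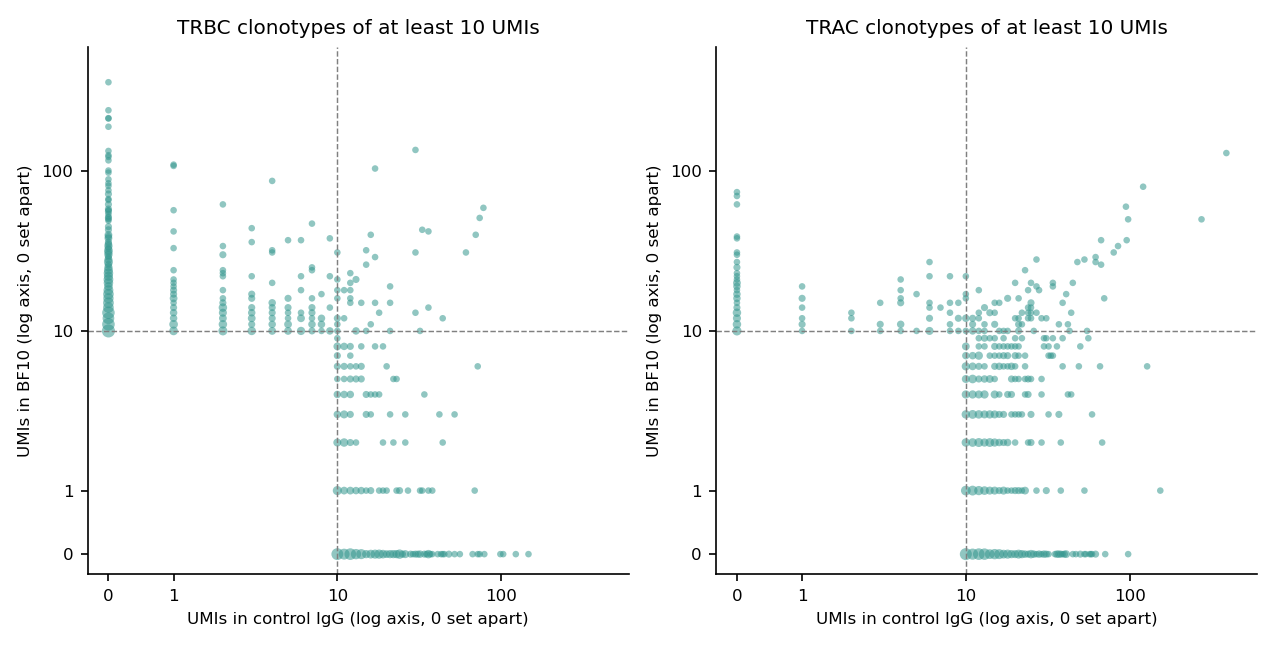
UMIs of each TRBC (left) and TRAC (right) clonotype with at least 10 UMIs in BF10 or control IgG, control IgG on the x axis and BF10 on the y axis (log axes, 0 set apart), with larger points where several clonotypes coincide. Dashed lines mark 10 UMIs. Of the TRBC clonotypes, 45 lie above both lines, and of the TRAC clonotypes 87.

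The leading TRBC clonotypes each belonged to 1 of the 2 libraries. The 5 largest of each are shown because they carry this difference, and capitals mark the bases between the V and J matches. The first 5 are those of BF10.
Trbv12-1 and Trbj2-1, 14 residues: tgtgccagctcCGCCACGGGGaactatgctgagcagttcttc
Trbv13-2 and Trbj2-1, 17 residues: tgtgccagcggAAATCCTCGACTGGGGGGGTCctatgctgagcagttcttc
Trbv12-2 and Trbj2-4, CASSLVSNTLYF: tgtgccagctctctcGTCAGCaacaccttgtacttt
Trbv29 and Trbj1-4, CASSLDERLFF: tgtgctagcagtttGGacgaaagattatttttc
Trbv29 and Trbj1-4, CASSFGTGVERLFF: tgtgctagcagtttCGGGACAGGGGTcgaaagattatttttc
Trbv17 and Trbj2-7, 16 residues: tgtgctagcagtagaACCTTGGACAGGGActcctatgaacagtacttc
Trbv5 and Trbj2-4, 15 residues: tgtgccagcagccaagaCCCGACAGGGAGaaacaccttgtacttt
Trbv3 and Trbj2-7, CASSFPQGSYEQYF: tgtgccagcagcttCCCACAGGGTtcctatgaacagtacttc
Trbv3 and Trbj2-7, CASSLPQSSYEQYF: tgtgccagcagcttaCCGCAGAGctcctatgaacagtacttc
Trbv19 and Trbj2-1, 13 residues: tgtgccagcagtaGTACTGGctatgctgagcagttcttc
The Trbv12-1 clonotype had 361 UMIs in BF10, 0.177% of TRBC (0.159% to 0.196%), and 0 in each of the other node libraries. Set against 3 UMIs, the limit that a count of 0 allows in control IgG, its share was at least 73.4-fold higher in BF10. It was chosen for its size in BF10, so a high ratio follows from the choice and is no evidence of a difference between treatments. Of its UMIs, 358 had the nucleotide sequence shown, and 23 had at least 7 reads. The 17-residue CDR3 with Trbv13-2 had 241 UMIs, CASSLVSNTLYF 215 and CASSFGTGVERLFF 190, and each had 0 in the other node libraries. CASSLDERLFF, which has only 2 bases between its V and J matches, differed from these in being spread over the series. It had 214 UMIs in BF10, 0 in control IgG, 2 in IL-10-Fc and 6 in anti-CSF1R, and in spleens 27 with BF10 and 13 with control IgG.

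On the control IgG side, the 16-residue CDR3 with Trbv17 had 147 UMIs, 0.118% of TRBC (0.0998% to 0.139%), and 0 in BF10, so that its share was at least 80.3-fold higher in control IgG. This ratio likewise follows from choosing a clonotype by its size. The other 4 had 123 (Trbv5), 103 (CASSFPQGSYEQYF), 99 (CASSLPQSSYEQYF) and 79 UMIs (Trbv19), and 0 in BF10. All 5 were listed with 0 UMIs in IL-10-Fc and anti-CSF1R nodes. Of the 10 clonotypes shown, 9 were thus listed in 1 node library only. In tumors and spleens these 9 had between 0 and 6 UMIs, in tissues of either treatment. In control IgG tissues, the Trbv17 clonotype had 5 UMIs in the tumor, the Trbv5 one 3 in the tumor and 6 in the spleen, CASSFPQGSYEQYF 3 in the spleen and the Trbv19 one 2 in the spleen. The Trbv19 clonotype also had 1 UMI each in the BF10 and IL-10-Fc tumors. Of the BF10 clonotypes, the one on Trbv12-1 had 1 UMI in the BF10 spleen, and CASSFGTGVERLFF had 2 in the control IgG spleen and 0 in BF10 tissues.

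Leading TRAC clonotypes were partly shared. The 3 largest that were listed in BF10 and not in control IgG, and 3 that were much larger in control IgG, are shown with the clonotype on Trav14-2 or Trav14n-2 that was listed in all 12 libraries.
Trav21-dv12 and Traj52, 16 residues: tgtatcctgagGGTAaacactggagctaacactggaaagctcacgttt
Trav13d-2 and Traj9, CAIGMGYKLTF: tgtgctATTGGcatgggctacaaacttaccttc
Trav4n-4 and Traj43, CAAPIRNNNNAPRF: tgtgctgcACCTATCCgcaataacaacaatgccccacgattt
Trav10 and Traj43, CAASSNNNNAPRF: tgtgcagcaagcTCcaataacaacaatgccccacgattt
Trav10n and Traj43, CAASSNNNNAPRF: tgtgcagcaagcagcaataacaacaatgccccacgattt
Trav7d-2 and Traj13, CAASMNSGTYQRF: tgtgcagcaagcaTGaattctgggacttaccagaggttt
Trav14-2 or Trav14n-2 and Traj22, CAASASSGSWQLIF: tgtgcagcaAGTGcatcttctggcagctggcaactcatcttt
The first 3 had 74, 70 and 62 UMIs in BF10 and 0 in the other node libraries, and in the BF10 spleen they had 8, 4 and 4. The first of them, on Trav21-dv12, was also listed in the other spleens, with 3 UMIs in control IgG, 1 in IL-10-Fc and 5 in anti-CSF1R. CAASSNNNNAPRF on Trav10 had 50 UMIs in BF10 (0.0894%) and 275 in control IgG (0.271%), a ratio of 0.330 (0.245 to 0.447), with 326 UMIs in IL-10-Fc and 132 in anti-CSF1R. The nucleotide sequence shown made up 166 of the control IgG UMIs and 0 of the BF10 ones, so the main rearrangement of control IgG was not listed in BF10. Whether its other nucleotide sequences were the same in both libraries was not compared. The same CDR3 on Trav10n, germline throughout, had 1 UMI in BF10 and 154 in control IgG, a ratio of 0.0118 (0.00165 to 0.0843). It had 51 UMIs in IL-10-Fc and 3 in anti-CSF1R, so that the libraries of low coverage had the fewest. The part of coverage, and of assignment between Trav10 and Trav10n, was not tested. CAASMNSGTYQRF had 6 and 128 UMIs. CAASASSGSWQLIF had 80 UMIs in BF10 (0.143%) and 121 in control IgG (0.119%), a ratio of 1.20 whose interval (0.906 to 1.59) holds 1.

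Large TRBC clonotypes were graded by how many of the other 3 node libraries listed them. In BF10, 367 of the 757 (48.5%) were in none, 112 (14.8%) in 1, 97 (12.8%) in 2 and 181 (23.9%) in all 3. The share with a single nucleotide sequence went down along this order, from 84.5% through 49.1% and 23.7% to 7.18%, as did the mean CDR3 length, from 13.95 through 13.68 and 13.29 to 13.10 residues. Control IgG showed the same order, with 213 of 452 (47.1%) in no other node library, 77 (17.0%) in 1, 61 (13.5%) in 2 and 101 (22.3%) in all 3, and with single-sequence shares of 88.7%, 76.6%, 50.8% and 16.8%. The share listed in no other node library was 45.9% in IL-10-Fc and 47.8% in anti-CSF1R, so it was alike in all 4. In TRAC more were shared: 118 of 194 (60.8%) in BF10 and 363 of 759 (47.8%) in control IgG were in all 3 other node libraries.

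To follow large clonotypes of 1 node library into other tissues, those with at least 10 UMIs were identified by segments and CDR3 nucleotide sequence and kept where no other node library listed them. BF10 had 479 such TRBC clonotypes. The BF10 spleen listed 107 of them, 22.3% (18.7% to 26.3%), and the BF10 tumor 37, 7.72% (5.50% to 10.5%). Tumors and spleens of the other treatments listed between 0% and 1.3%. Of the 310 of control IgG, the control IgG spleen listed 62, 20% (15.7% to 24.9%), and the control IgG tumor 18, 5.81% (3.48% to 9.02%), against 0% to 1.61% in the other 6 libraries. These shares within a treatment had overlapping counting intervals between BF10 and control IgG. Leaving out clonotypes of other nodes also leaves out those that many animals share, and without this step the contrast was smaller. Of all 597 large TRBC clonotypes of BF10, the BF10 spleen listed 25.1% and the BF10 tumor 12.1%, against 0.670% to 5.70% in the other treatments. Of all 396 of control IgG, the control IgG spleen listed 22.2%, but the control IgG tumor listed 7.32% (4.96% to 10.3%), close to the IL-10-Fc tumor (6.31%) and the BF10 spleen (7.07%). The tumor libraries differed in size, with 175080 TRBC UMIs in BF10 and 104036 in control IgG. They differed more in clonotypes by nucleotide sequence, with 90267 for TRBC in BF10, 54779 in IL-10-Fc, 9466 in control IgG and 2493 in anti-CSF1R. A tumor library with more clonotypes can list more of those of a node, and the shares were not corrected for this. In TRAC, the BF10 spleen listed 34.0% and the BF10 tumor 15.1% of 53 such clonotypes, and the control IgG spleen and tumor 17.6% and 9.16% of 262. Over all large TRAC clonotypes the tumors did not follow the treatment. The tumors held 55103 TRAC clonotypes in BF10, 38233 in IL-10-Fc, 9468 in control IgG and 2430 in anti-CSF1R, so these shares too depend on library size. The BF10 tumor listed 44.3% and the IL-10-Fc tumor 40.9% of the 149 of BF10, and the control IgG tumor listed 19.9% of the 593 of control IgG, below the BF10 (33.6%) and IL-10-Fc (30.7%) tumors. The spleen of the same treatment listed the most, 62.4% for BF10 and 45.9% for control IgG. The labels do not say whether the same mice gave the 3 tissues.

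**Figure D5:**
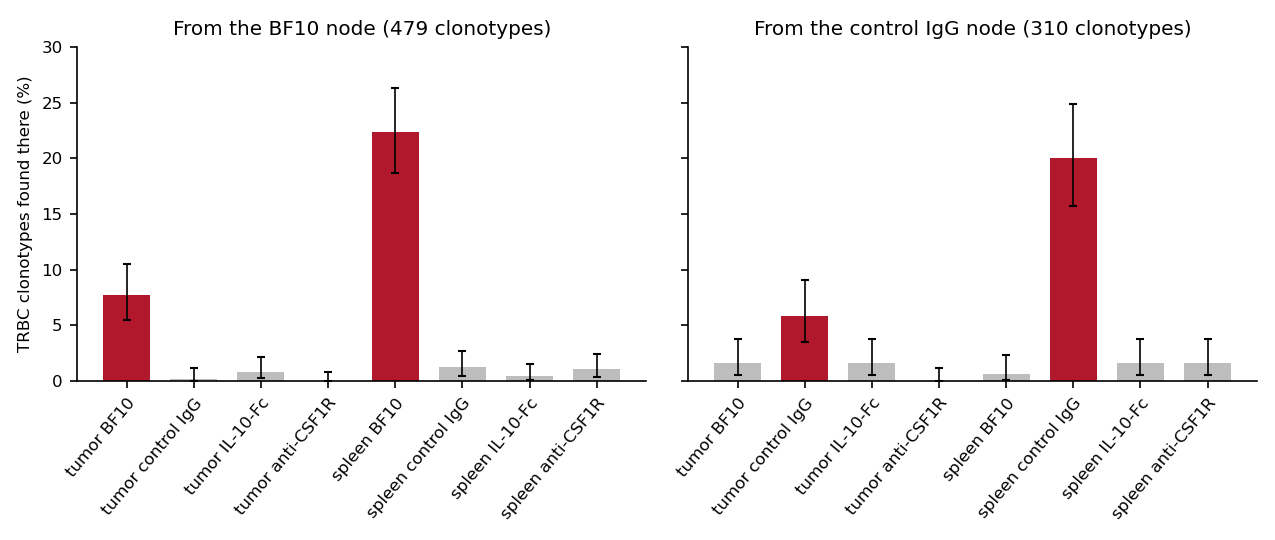
Share, in percent, of the TRBC clonotypes with at least 10 UMIs in the BF10 node (left, 479) or the control IgG node (right, 310) and listed in no other node library that each tumor and spleen library listed, with exact 95% counting intervals. Red bars are tumor and spleen of the same treatment. They stand at 7.72% and 22.3% for BF10 and at 5.81% and 20% for control IgG, above all grey bars. Leaving out clonotypes of other nodes also leaves out those that many animals share, which lowers the grey bars. Without this step the control IgG tumor listed 7.32% of the control IgG node clonotypes and the BF10 spleen 7.07%.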

How the data were processed

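TCR libraries were made with the QIAseq kit and sequenced on a NextSeq 550, and the authors processed the reads in the kit's data analysis portal, which grouped them by UMI and assigned V region, J region and CDR3. The deposited values are raw counts of UMIs per clonotype, in separate columns for read minimums from 3 to 7, and were not normalized. The submitters' processing notes name the build mm10. The aligner, germline reference and error correction are not given in the sources used here.

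The members and lists were chosen with earlier results of these data known. Counts were summed by library, chain, V region, J region and CDR3 amino acid sequence. Clonotypes with an undetermined residue (137 in BF10, 77 in control IgG) were kept. Segments with at least 1% of a chain's UMIs in either library were compared, and those with a ratio of at most 0.8, or its inverse and above, were counted as past the fold. Named segments are those past the fold on the same side at 3 and at 7 reads (at most 10 per direction) and the 3 with the largest control IgG share. Named clonotypes are the 5 (TRAC, TRBC) or 3 (TRGC, TRDC) with the most UMIs in each library and the 3 with the largest share differences in each direction. Other named segments and clonotypes were chosen after their values were seen. Share intervals are exact (Clopper-Pearson) at 95%. The number of large clonotypes at equal UMIs is its exact expectation under drawing without replacement. A count of 0 was bounded by 3 UMIs. Germline matches and coordinates come from GRCm38 with GENCODE gene models, where 206 of 215 segment symbols matched by name, and Trgv1 and Trgv3 to Trgv7 are listed as Tcrg-V. The last base of the CDR3 was left out of the J match.

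Alternatives were minimums of 5 and 7 reads, each clonotype counted once, leaving out clonotypes of at least 10 UMIs, V families, a fold of 1.5, no minimum share, and minimums of 5 UMIs, 20 UMIs or 0.02% for large clonotypes. Calling segments past the fold, the intervals of ratios and the expected number of large clonotypes at fewer UMIs were tested beforehand on simulated data with known answers. The other steps were not tested in this way. The work used Python 3.11.15, pandas 2.3.3, numpy 2.4.6, scipy 1.17.1 and matplotlib 3.10.9.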

Additional observations from a re-analysis of the deposited data

How the results depend on the processing

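With 1 library a side, no result has a test, and alternatives are read by how far they move a value. Of 22 results, 42 of 83 alternative values moved by less than counting error or by less than 1.5 times for a count. Of the 19 named segments, 65 of 66 alternative values lay on the same side of 1, the exception being Trdj2 with each clonotype counted once (0.95), and 49 were past the fold.

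Higher read minimums changed the count of segments past the fold. The count for TRBC V went from 0 to 2 with at least 5 reads and 3 with at least 7. At 7 reads it went from 11 to 17 for TRAC V and from 0 to 4 for TRAC J, and at 5 reads from 2 to 1 for TRGC J. With each clonotype counted once there were 2 TRBC V, 4 TRAC V, 1 TRGC J and 0 TRDC J segments. Without clonotypes of at least 10 UMIs there were 1 TRBC V and 7 TRAC V segments. V families left 1 for TRAC, a fold of 1.5 left 1, and without a minimum share there were 84 TRAC V and 6 TRBC V segments.

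The ratio of large TRBC clonotypes in BF10 to control IgG was 1.67 as counted and 1.38 with at least 5 UMIs. It reversed to 0.743 at equal UMIs and 0.714 with a minimum of 0.02%. With 7 reads it was 0.124, at unequal totals of 16853 and 50856 UMIs, which cannot be compared by a fixed minimum of 10 UMIs. For TRAC the ratio was 0.256 as counted, 0.724 at equal UMIs, 0.725 with 0.02%, 0.300 with at least 5 UMIs and 0.211 with at least 20. With 7 reads it was 0.00847, at totals of 3626 and 36530 UMIs that are likewise unequal.

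At 7 reads, the ratio of chain shares went from 1.41 to 1.38 for TRBC, 0.473 to 0.413 for TRAC (0.438 at 5 reads), 1.31 to 1.41 for TRGC and 1.04 to 1.5 for TRDC (1.20 at 5 reads). The iNKT-type ratio went from 0.545 to 0.779 and, with each clonotype counted once, to 0.415. Trgv5 with Trgj1 went from 1.95 to 1.48 at 7 reads and to 1.18 with each clonotype once. Counted once, Trgv6 with Trgj1 went from 1.38 to 1.2, Trdv4 with Trdj2 from 1.32 to 1.01, and the adult gamma group from 0.743 to 0.915 (0.719 at 5 reads). The difference in mean CDR3 length went from 0.00404 to 0.0257 residues for TRBC and from 0.0323 to 0.00133 for TRAC with each clonotype once, and to 0.00605 for TRAC without large clonotypes. MAIT-type chains gave no ratio at 7 reads, with 0 UMIs in BF10. The cause of these changes was not tested. No paired analysis was possible because the result comes from no test and each group has 1 library.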
